A study of Arabidopsis thaliana with 16 samples.

Results

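The 8 genes described here encode the ethylene response factor (ERF) repressors of group VIII in Arabidopsis thaliana: ERF3 (AT1G50640), ERF4 (AT3G15210), ERF7 (AT3G20310), ERF8 (AT1G53170), ERF9 (AT5G44210), ERF10 (AT1G03800), ERF11 (AT1G28370) and ERF12 (AT1G28360). They were named gene by gene, by family and not by a measured threshold, though with earlier results of these data known. Developmental genes of the same group, of which 4 are described below, are not among them. They are 8 of the 27444 protein-coding genes of the gene table used. The question asked of the data was whether, and where, the nuclear protein ENAP1 was found at these genes by chromatin immunoprecipitation followed by sequencing (ChIP-seq). ENAP1 interacts with EIN2, the membrane protein that passes the ethylene signal to the nucleus.

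The 4 conditions measured were the ein2 mutant in ethylene, ein2 in air, the wild-type accession Col-0 in ethylene and Col-0 in air. Whole seedlings were raised for 3 days in darkness at 24 °C and then kept for 4 hours in hydrocarbon-free air, with 10 ppm ethylene in the ethylene groups. Each condition had 2 ChIP samples, made with an anti-green fluorescent protein antibody, and 2 samples of input DNA. The sources used here name neither the ein2 allele nor the tagged ENAP1 construct and its promoter, and do not tell if the replicates were grown separately. In the labels the air ChIP libraries carry plain numbers and the ethylene ChIP libraries codes that begin with C, so any handling that went with these codes cannot be told apart from ethylene. No sample is a ChIP from plants that lack the tag, so signal that the antibody gives without ENAP1 cannot be told apart from binding.

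The deposited data are lists of peaks, called regions below, with 1 list for both replicates of a condition. The lists hold 4696 regions in ein2 ethylene, 3252 in ein2 air, 5137 in Col-0 ethylene and 7852 in Col-0 air. Since replicates are not separate, no spread between them can be given, and differences between conditions are described without a test. The lists hold no read counts, so depth is unknown. The weakest region listed also differs between the sets, with a lowest −log10 q (the peak caller's adjusted p-value) of 6.57 in ein2 ethylene, 10.9 in ein2 air, 10.8 in Col-0 ethylene and 13.4 in Col-0 air. A region missing from one set is therefore a region that is not listed, not a region shown to be absent. A gene was counted as having a region if one overlapped its span, extended by 1000 bp on each side, by at least 1 bp. Fold is the authors' enrichment of ChIP signal over local background at the summit, the point of highest signal. It depends on each set's own background, so it is used here to rank regions within their own set, and ranks in lists of different length show no change.

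ERF proteins are plant transcription factors that bind GC-rich elements in promoters, of which the GCC box is the best known. The group VIII repressors described here are known to carry an EAR motif, a short leucine-rich stretch. It recruits co-repressors such as TOPLESS and the SIN3 complex, and through them histone deacetylases. These repressors lower the transcription of the genes they bind and are known as brakes on ethylene, jasmonate, abscisic acid and stress responses. Their own transcription answers to several of these signals.

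ENAP1 regions lay at 7 of the 8 repressor genes in at least 1 condition, and ERF11 was the gene without any. In ein2 ethylene 4 of the 8 had a region, namely ERF3, ERF4, ERF8 and ERF9. In ein2 air 3 did, ERF4, ERF7 and ERF9. In Col-0 ethylene 4 did, ERF4, ERF9, ERF10 and ERF12, and in Col-0 air all but ERF11. Among all protein-coding genes, 22.4% had a region in ein2 ethylene, 16.9% in ein2 air, 26.2% in Col-0 ethylene and 35.5% in Col-0 air. The members' shares were 50% (Wilson 95% interval 21.5 to 78.5, counting error only) in ein2 ethylene, 37.5% (13.7 to 69.4) in ein2 air, 50% (21.5 to 78.5) in Col-0 ethylene and 87.5% (52.9 to 97.8) in Col-0 air. The Col-0 air count depended on the settings: it was 4 of 8 without the flank, against 25.2% of all protein-coding genes, and 4 of 8 when each set was reduced to its 3252 regions with the smallest p-values, against 17.5% of all genes. The member genes are short, with a median of 1270 bp against 2078 bp over all protein-coding genes. In the length range of the members, 1063 to 2168 bp, a region was listed for 20.8% of genes in ein2 ethylene, 15.6% in ein2 air, 25.0% in Col-0 ethylene and 33.1% in Col-0 air. These shares were slightly below those of all genes in every set.

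**Figure D1:**
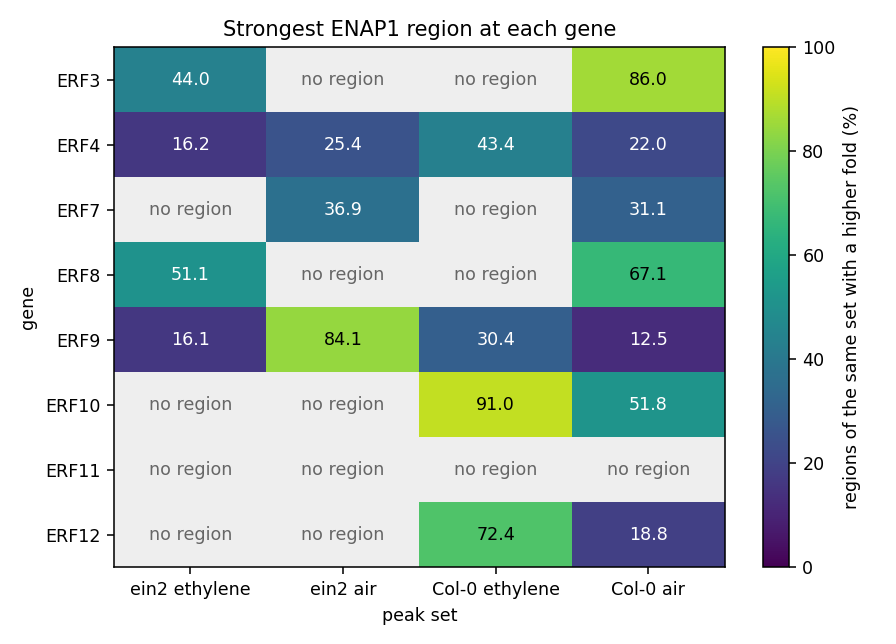
Each cell gives the share of regions in the same peak set that have a higher fold than the strongest region at that gene, in percent, for the 8 genes (rows) and 4 peak sets (columns); low values are strong regions and grey cells have no region. ERF4 and ERF9 are filled in all 4 columns, and all 4 cells of ERF11 are grey.

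Only ERF4 and ERF9 of the 8 genes had a region in all 4 sets, where 12.8% of all protein-coding genes did. Ranked by fold, the strongest ERF4 region was above the set's median in every set, and that of ERF9 in every set but ein2 air. In Col-0 ethylene the ERF4 region was below the median in other rankings, with 62.5% of regions higher by −log10 p and 53.3% higher by fold among regions past the common −log10 q minimum, the highest of the 4 minima. In ein2 ethylene, among regions past that minimum, 38.5% had a higher fold than the strongest ERF4 region and 38.4% a higher fold than that of ERF9.

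ERF4 is a repressor that acts in ethylene, jasmonate and abscisic acid responses and in leaf senescence. It had 3 regions in ein2 ethylene, 2 in ein2 air, 3 in Col-0 ethylene and 3 in Col-0 air. Of the genes with a region, 0.797% had 3 or more in ein2 ethylene, 0.834% in Col-0 ethylene and 2.15% in Col-0 air. Genes with 3 regions were thus few, and ERF4 was one of them in each of these 3 sets. That count rests on a region whose summit lay outside the 1000 bp flank in each of these sets. This region began 846 bp from the gene in ein2 ethylene, 995 bp in Col-0 ethylene and 798 bp in Col-0 air.

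The first ERF4 region lay across the lower-numbered edge of the gene (the gene table gives no strand, so starts and ends of genes are not told apart). It spanned chr3:5121226-5121589 in ein2 ethylene, chr3:5121216-5121594 in ein2 air, chr3:5121226-5122061 in Col-0 ethylene and chr3:5121208-5122181 in Col-0 air (build TAIR10, as in all coordinates here). Its summits fell 14 to 148 bp inside the gene. It was 364 bp wide in ein2 ethylene and 379 bp in ein2 air, against 836 bp in Col-0 ethylene and 974 bp in Col-0 air. Both ein2 regions thus ended much nearer the edge of the gene than both Col-0 regions. Over all regions the median width was also lower in ein2, at 279 bp in ein2 ethylene and 290 bp in ein2 air. It was 322 bp in Col-0 ethylene and 323 bp in Col-0 air.

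The second ERF4 region lay at the other edge of the gene, with summits 144 to 175 bp outside it in all 4 sets. Its fold was 3.42 in ein2 ethylene, 4.51 in ein2 air, 3.18 in Col-0 ethylene and 4.65 in Col-0 air. A higher fold was held by 16.2% of regions in ein2 ethylene, 25.4% in ein2 air, 75.3% in Col-0 ethylene and 40.6% in Col-0 air. It was the strongest ERF4 region in both ein2 sets and the weakest of the 3 in both Col-0 sets.

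The third ERF4 region had its summit 1100 to 1114 bp beyond the same edge, just outside the 1000 bp flank that its lower end reached into. It was found in ein2 ethylene with a fold of 2.77, in Col-0 ethylene with 3.70 and in Col-0 air with 5.65. In ein2 air it was not listed, and the next region there began 1604 bp from the gene. The nearest other protein-coding gene, AT3G15220, was 2914 bp or more from these summits. In Col-0 air this outlying region was the strongest of the 3 by fold, with 22.0% of regions of that set above it. By −log10 p the first ERF4 region was stronger in Col-0 air, at 45.2 against 41.3.

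ERF9, whose protein acts in defence against necrotrophic fungi, had a region near its lower-numbered edge in every set, with summits at 147 to 188 bp inside the gene. The fold was 3.42 in ein2 ethylene, 2.88 in ein2 air, 4.41 in Col-0 ethylene and 6.61 in Col-0 air. A higher fold was held by 16.1% of regions in ein2 ethylene, 84.1% in ein2 air, 30.4% in Col-0 ethylene and 12.5% in Col-0 air. The ein2 air region was thus a weak one of its set, while the other 3 ranked well above the middle of theirs.

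The shape of the ERF9 signal also varied. In ein2 ethylene and Col-0 air a second region lay near the other edge of the gene, at chr5:17807223-17807645 in ein2 ethylene and chr5:17807048-17807681 in Col-0 air. Its summit was 252 bp inside the gene in ein2 ethylene and 235 bp in Col-0 air. A single region of 1331 bp, chr5:17806380-17807710, covered the whole gene in Col-0 ethylene. It was among the widest regions of that set, of which 1.09% were wider. In ein2 air the only region was the narrow one at chr5:17806451-17806653, 203 bp wide.

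**Figure D2:**
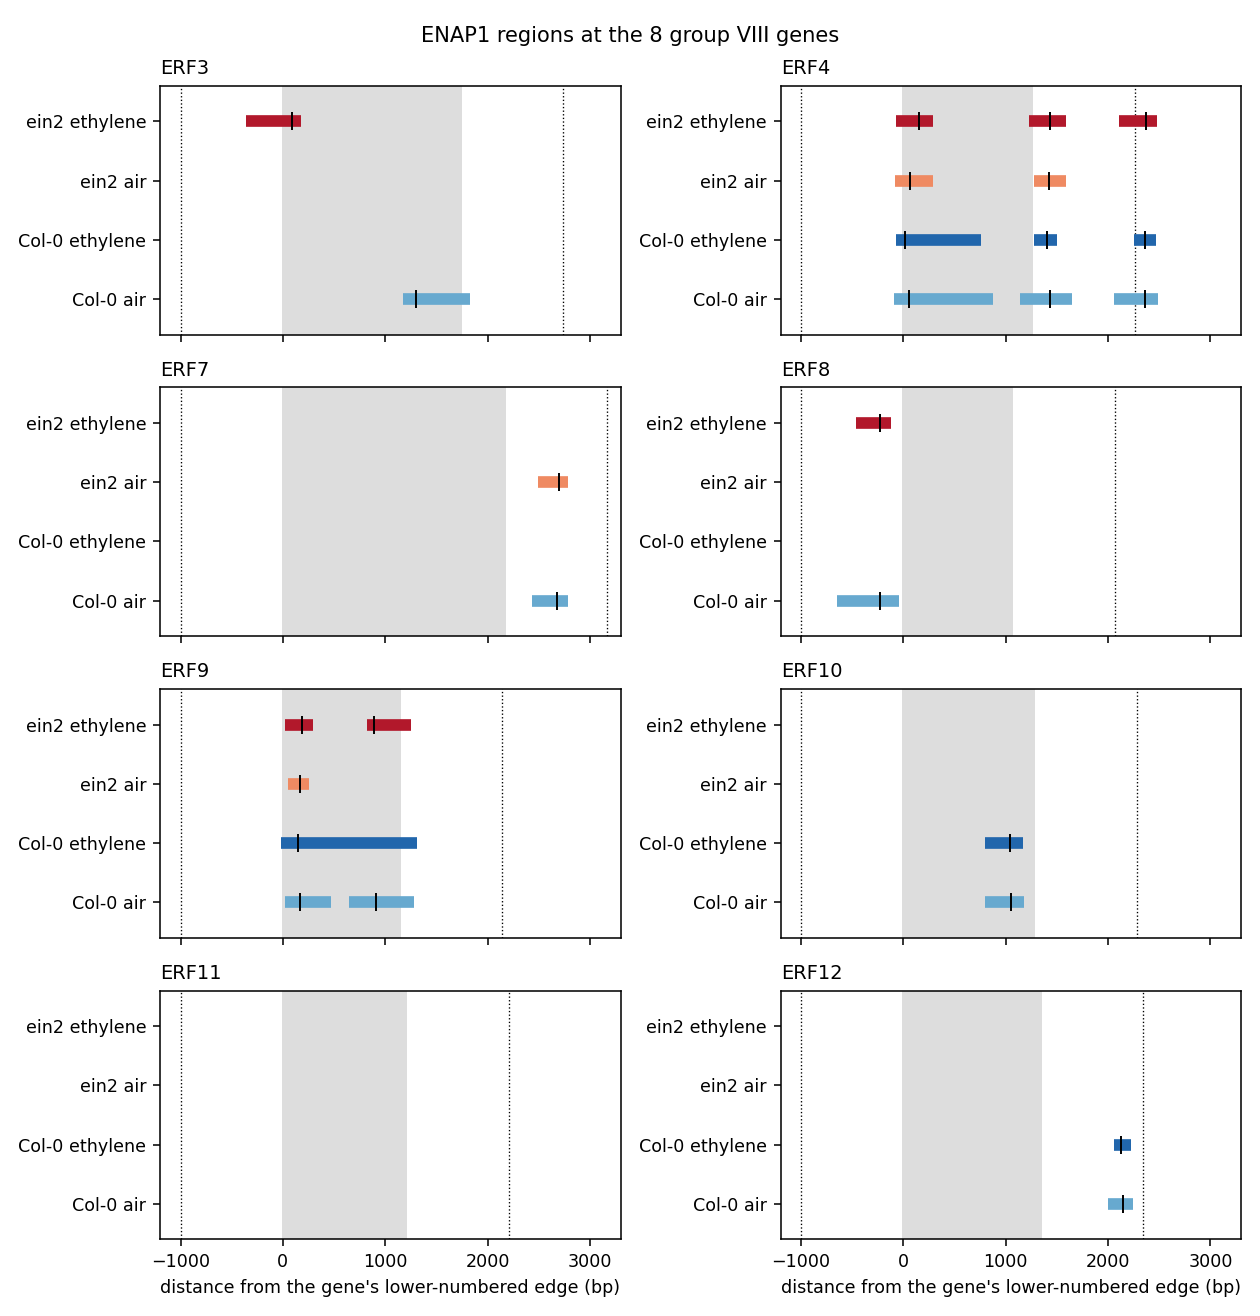
Bars are ENAP1 regions at each of the 8 genes, in bp from the gene's lower-numbered edge (horizontal axis), for the 4 peak sets (rows of each panel); black ticks are summits, grey is the gene, and dotted lines mark the 1000 bp flanks. ERF4 and ERF9 hold regions in all 4 sets, the ERF3 regions of ein2 ethylene and Col-0 air lie at opposite ends of the gene, and ERF11 is empty.

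ERF3 and ERF8 each had a region in ein2 ethylene and in Col-0 air and none in the other sets, a pattern that 3.05% of protein-coding genes showed. ERF8 takes part with ERF4 in leaf senescence. Its region lay outside the gene, at chr1:19820874-19821211 in ein2 ethylene and chr1:19820691-19821291 in Col-0 air, and ended 126 bp short of the gene in ein2 ethylene and 46 bp in Col-0 air. The summits, 228 bp from the gene in ein2 ethylene and 226 bp in Col-0 air, were 2 bp apart. The fold was 2.71 in ein2 ethylene, where 51.1% of regions were higher, and 3.83 in Col-0 air, where 67.1% were higher. The place was thus the same in both sets.

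At ERF3, a repressor of GCC-box genes, the 2 regions did not overlap. The ein2 ethylene region, chr1:18756610-18757149, had its summit 88 bp inside the lower-numbered edge. The Col-0 air region, chr1:18758147-18758800, had its summit 437 bp inside the opposite edge. The fold was 2.79 in ein2 ethylene (44.0% of regions higher) and 3.28 in Col-0 air (86.0% higher). By −log10 p, 80.5% of ein2 ethylene regions ranked above that of ERF3. A count of genes therefore treats ERF3 as shared between these sets, although the signal lay at different ends of the gene.

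ERF10 and ERF12 had a region in both Col-0 sets and in neither ein2 set, as did 5.51% of protein-coding genes. The ERF10 region lay in the gene, at chr1:957904-958274 in Col-0 ethylene and chr1:957902-958286 in Col-0 air, with summits 3 bp apart. Its fold was 2.83 in Col-0 ethylene, with 91.0% of regions higher, and 4.29 in Col-0 air, with 51.8% higher. It was thus a weak region of the ethylene set and a middling one of the air set. The flank of the neighbouring gene AT1G03810 also reaches it, and the summit is 608 to 611 bp from that gene.

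ERF12, whose protein acts with TOPLESS-related co-repressors on the dormancy gene DOG1, had its region outside the gene. It spanned chr1:9953819-9953986 in Col-0 ethylene and chr1:9953757-9954010 in Col-0 air, with a summit 788 bp beyond the edge in Col-0 ethylene and 800 bp in Col-0 air. Its fold was 3.24 in Col-0 ethylene, with 72.4% of regions higher, and 5.90 in Col-0 air, with 18.8% higher by fold and 38.3% by −log10 p. ERF12 and ERF11 are neighbours 2668 bp apart with no protein-coding gene between them, and this region lies in the stretch that separates them. It began 652 to 714 bp from ERF12 and its summit was 1869 to 1881 bp from ERF11, so the rule gave it to ERF12.

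ERF11, which represses the ethylene synthesis genes ACS2 and ACS5, had no region in any set, as was the case for 60.3% of protein-coding genes. The nearest region began 2330 bp away in ein2 ethylene, 39750 bp in ein2 air, 1788 bp in Col-0 ethylene and 1764 bp in Col-0 air. With a flank of 2000 bp, the region between the genes counted for ERF11 as well in both Col-0 sets.

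ERF7, a repressor in abscisic acid responses that binds the SIN3 co-repressor, was the 1 member with a region in both air sets and in neither ethylene set. Among protein-coding genes 0.390% had this pattern. The region was chr3:7087221-7087515 in ein2 air and chr3:7087162-7087518 in Col-0 air, with a summit 533 bp beyond the gene in ein2 air and 511 bp in Col-0 air. Its fold was 4.06 in ein2 air (36.9% of regions higher) and 5.10 in Col-0 air (31.1% higher). By −log10 p, 61.7% of regions ranked higher in ein2 air and 46.9% in Col-0 air. In both sets the region overlapped the neighbouring gene AT3G20320, also called TGD2 or ABCI15, a lipid transporter gene of the chloroplast envelope. The summit was 18 bp from that gene in ein2 air and 40 bp in Col-0 air, nearer than ERF7. Whether it belongs to ERF7 or to its neighbour was not tested.

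Over all members, 27 regions were listed at 10 separate places. Of these places 3 were found in all 4 sets, 1 in 3 sets, 4 in 2 and 2 in a single set. Overlapping regions were joined into 1 place, so the 1331 bp Col-0 ethylene region joined both ends of ERF9. The second ERF9 region, listed separately in ein2 ethylene and Col-0 air, is therefore not counted on its own. The fold ran from 2.04 to 6.61 and the width from 168 to 1331 bp. Of the 27 summits, 14 lay inside the member gene and 19 within 300 bp of one of its edges. In ein2 ethylene 4 of 7 summits were inside, in ein2 air 2 of 4, in Col-0 ethylene 3 of 6 and in Col-0 air 5 of 10. Of all summits, 68.3% lay inside a protein-coding gene in ein2 ethylene, 78.8% in ein2 air, 74.4% in Col-0 ethylene and 70.3% in Col-0 air. Within 300 bp of an edge of any protein-coding gene lay 71.3% to 75.7% of all summits, depending on the set. Set against the median fold of all regions of a set, 4 of 7 member regions exceeded 2.72 in ein2 ethylene and 2 of 4 exceeded 3.72 in ein2 air. In Col-0 ethylene 2 of 6 exceeded 3.76, and in Col-0 air 6 of 10 exceeded 4.34. The members' regions thus lay on both sides of the median in each set.

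In Col-0, ethylene was compared with air to ask where ENAP1 occupancy differs after the hormone. All 4 members with a region in Col-0 ethylene also had one in Col-0 air. ERF3, ERF7 and ERF8 had one in Col-0 air and not in Col-0 ethylene. Among all protein-coding genes 2.53% had a region in Col-0 ethylene and not in air, and 11.8% in air and not in ethylene. Col-0 ethylene held 4 of the 7 members listed in Col-0 air, against 66.7% of all genes listed there. All 6 member regions of Col-0 ethylene overlapped one of Col-0 air, and 7 of the 10 in Col-0 air overlapped one of Col-0 ethylene. Over all regions the shares were 88.2% of those in Col-0 ethylene and 58.2% of those in Col-0 air, so the members' counts were near the background.

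When Col-0 air regions are split into deciles of fold, 60% of those in the decile of the ERF7 region overlapped a Col-0 ethylene region. The share was 45.4% in the decile of the ERF3 region and 43.7% in that of the ERF8 region. ERF10, in a decile where 42.2% had a counterpart, had one, with 371 bp in common. With the highest of the 4 minima of −log10 q, 13.4, applied to every set, the Col-0 ethylene regions at ERF10 and ERF12 dropped out, at 11.2 and 12.1. The members counted were then 2 of 8 in Col-0 ethylene and 7 of 8 in Col-0 air, against 22.2% of all protein-coding genes in Col-0 ethylene and 35.5% in Col-0 air. The 5 members in Col-0 air alone stood against 14.8% of all genes.

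The same comparison was made in ein2, a mutant background known for its insensitivity to ethylene. ERF4 and ERF9 had a region in both sets. ERF3 and ERF8 had one in ethylene alone, and ERF7 had one in air alone. Among all protein-coding genes 8.09% had a region in ein2 ethylene alone of the 2 sets and 2.55% in ein2 air alone. The ein2 ethylene regions at ERF3 and ERF8 had a −log10 q of 8.04 at ERF3 and 9.0 at ERF8, both below the lowest value listed in ein2 air, 10.9. At the common minimum of 13.4 ERF9 was the 1 member counted in ethylene alone, since its ein2 air region had a −log10 q of 12.8. Of all protein-coding genes 1.88% were then in that class. The ERF7 region of ein2 air lay in a decile in which 90.2% of regions overlapped an ein2 ethylene region, and it did not.

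**Figure D3:**
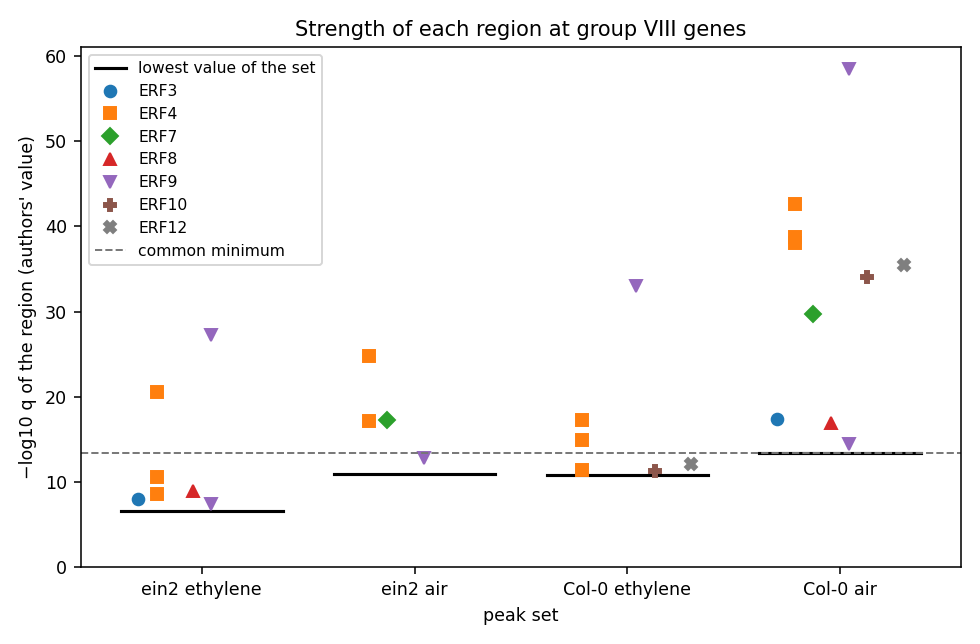
Each symbol is 1 ENAP1 region at a group VIII gene, placed by its −log10 q as the authors' peak caller gave it (vertical axis) in its peak set (horizontal axis); black bars are the lowest value listed in each set and the dashed line is the highest of these. The regions at ERF3 and ERF8 in ein2 ethylene, at 8.04 and 9.0, lie below the bars of the other 3 sets.

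The peak names carry numbers that follow the position along each chromosome in all 20 combinations of set and chromosome, and the lists leave many numbers out. The numbers left out between the listed neighbours of a gene were counted. For ERF7 in ein2 ethylene there was none, and the neighbours lay 5630 bp below the gene and 5546 bp above it. In the other 13 combinations of member and set without a region, 1 to 10 numbers were left out between the neighbours. Where those peaks lay is not given in the lists.

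In air, ein2 was compared with Col-0 to ask whether loss of EIN2 alters occupancy without added ethylene. ERF4, ERF7 and ERF9 had a region in both lines. No member had one in ein2 and not in Col-0, and ERF3, ERF8, ERF10 and ERF12 had one in Col-0 and not in ein2. Among all protein-coding genes the shares were 0.204% for ein2 air without Col-0 air and 18.8% for the reverse. The ein2 air set held 3 of the 7 members listed in Col-0 air, and 47.0% of all genes listed there. The members' count was near the background in this respect. Of the 4 genes missing from ein2 air, ERF12 had the strongest Col-0 air region, in a decile of which 82.4% overlapped an ein2 air region. For ERF10 that share was 24.9%, for ERF8 22.0% and for ERF3 12.5%.

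The remaining comparison set ein2 against Col-0 with both in ethylene. ERF4 and ERF9 had a region in both lines, ERF3 and ERF8 in ein2 and not Col-0, and ERF10 and ERF12 in Col-0 and not ein2. The background shares were 6.03% for ein2 ethylene without Col-0 ethylene and 9.84% for the reverse. All of the 4 genes that differed had −log10 q values of at most 12.1. At the common minimum of 13.4 none of them was counted in either line, and ERF4 and ERF9 remained in both. Of all protein-coding genes 1.56% were then in ein2 and not Col-0, and 13.4% in Col-0 and not ein2.

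The pathway around the repressors was described with 5 further lists. Of 14 genes for co-repressors and deacetylases that EAR-motif proteins use, 3 had a region in ein2 ethylene, 1 in ein2 air, 4 in Col-0 ethylene and 9 in Col-0 air. These were 21.4% in ein2 ethylene, 7.14% in ein2 air, 28.6% in Col-0 ethylene and 64.3% in Col-0 air. All protein-coding genes stood at 22.4%, 16.9%, 26.2% and 35.5% in the same order. The TPL, TPR and SNL genes are each at least 6217 bp long, against a median of 2078 bp over all protein-coding genes. The part that length plays in these counts was not tested. SNL2, which encodes a SIN3-like scaffold protein, had a region in all 4 sets, with a fold of 4.20 in ein2 ethylene, 4.77 in ein2 air, 2.75 in Col-0 ethylene and 7.32 in Col-0 air. TPL, the gene of TOPLESS, shared the pattern of ERF3 and ERF8, with a fold of 3.31 in ein2 ethylene and 3.75 in Col-0 air. HDA19, the histone deacetylase gene, and SNL3 shared that of ERF10 and ERF12. The highest fold at HDA19 was 3.46 in Col-0 ethylene and 3.47 in Col-0 air. The fold at SNL3 was 3.44 in Col-0 ethylene and 4.50 in Col-0 air. SNL5 had a region in every set but ein2 air, TPR2, TPR3, TPR4 and HDA6 had a region in Col-0 air alone, and TPR1, SAP18, SNL1, SNL4 and SNL6 had none.

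Among 5 genes known as targets of these repressors, 1 had a region in ein2 ethylene, 1 in ein2 air, 2 in Col-0 ethylene and 3 in Col-0 air. The shares were 20% in ein2 ethylene, 20% in ein2 air, 40% in Col-0 ethylene and 60% in Col-0 air. All protein-coding genes stood at 22.4%, 16.9%, 26.2% and 35.5% in the same order. BT4, a BTB-domain gene bound by ERF11, had a region in every set. ACS2 had one in both Col-0 sets and ACS5 in Col-0 air, while DOG1 and ESP, an epithiospecifier gene under ERF4 and ERF8, had none. A chosen list of 4 developmental genes of group VIII, ESR1, ESR2, LEP and PUCHI, which act in shoot, leaf and root formation, had no region in any set. With a region in any set there were thus 7 of the 8 repressors and 0 of these 4 relatives, where 39.7% of all protein-coding genes had one. The difference was not tested.

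Of 11 group IX genes, mostly activators of ethylene and jasmonate responses, 4 had a region in ein2 ethylene, 4 in ein2 air, 4 in Col-0 ethylene and 5 in Col-0 air. The shares were 36.4% in both ein2 sets, 36.4% in Col-0 ethylene and 45.5% in Col-0 air. All protein-coding genes stood at 22.4% in ein2 ethylene, 16.9% in ein2 air, 26.2% in Col-0 ethylene and 35.5% in Col-0 air. ERF1A, ERF5 and ERF6 had a region in all 4 sets, like ERF4 and ERF9. ERF104 had one in every set but ein2 ethylene, ERF1 in ein2 ethylene alone and ERF13 in Col-0 air alone. Of 5 group VII genes, which act in the response to low oxygen, 2 had one in ein2 ethylene, 1 in ein2 air, 3 in Col-0 ethylene and 5 in Col-0 air, and none had one in all 4. The group VII shares with a region were 40% in ein2 ethylene, 20% in ein2 air, 60% in Col-0 ethylene and 100% in Col-0 air. RAP2.3 and HRE2 shared the pattern of ERF10 and ERF12. RAP2.2 had one in every set but Col-0 ethylene, RAP2.12 in every set but ein2 air, and HRE1 in Col-0 air alone.

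**Figure D4:**
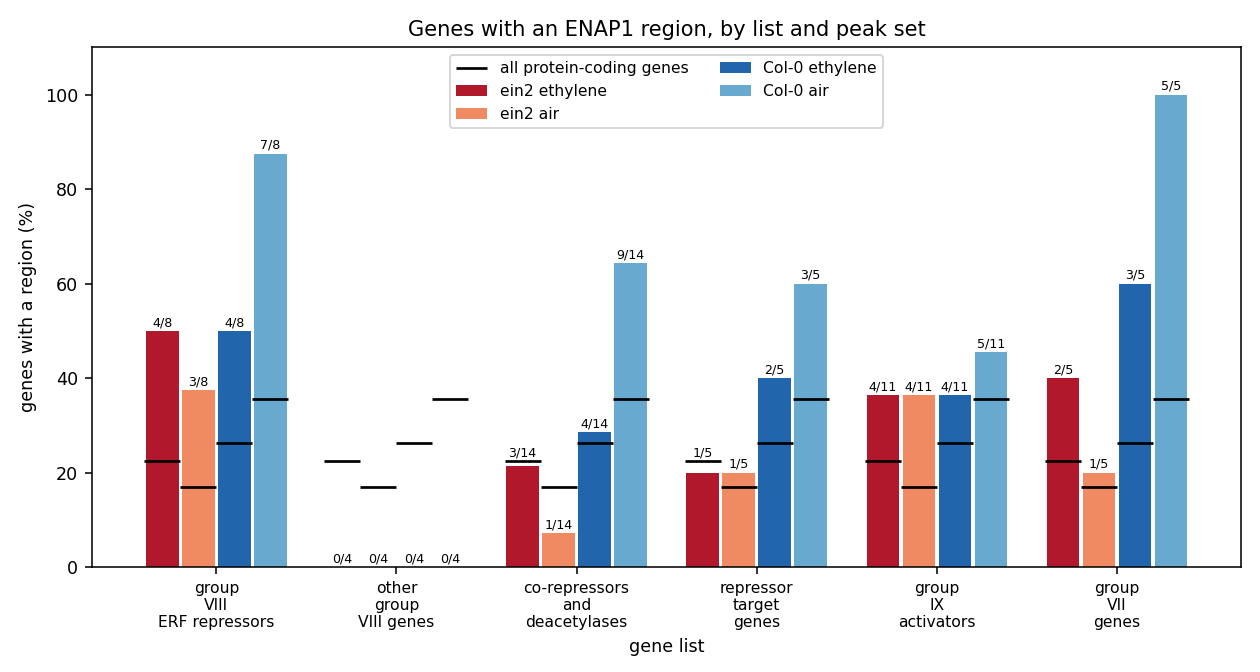
Bars give the share of genes with an ENAP1 region, in percent, for 6 gene lists (horizontal axis) and 4 peak sets (colours), with counts above them; black bars give the share among all protein-coding genes. The 8 repressors exceed the black bar in every set, and so do the group IX and group VII lists. The bars rest on few genes, such as 1 of 5 for group VII in ein2 air. No difference from the black bars was tested. The 4 listed developmental genes of group VIII are at 0.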

How the data were processed

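ENAP1 ChIP-seq peak lists of 4 conditions (2 ChIP and 2 input samples each, 16 in all) were used. The submitters' processing notes name BWA, MACS2 2.1.0.20150603 and the TAIR10 build. The peak threshold and how replicates were combined are not stated there. The deposited files give each peak's position and summit offset in bp, its fold enrichment (a ratio computed by the authors), and −log10 p and −log10 q values. Of 6 deposited peak files, 2 are named in no sample label, and their 20 columns were not used.

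Gene spans were read from RefSeq's TAIR10.1 gene table. Its name differs from that of the files, so none of its coordinates is printed. As a check, 71.3% to 75.7% of summits lay within 300 bp of a protein-coding gene edge, against at most 28.3% after shifts of 2000 to 20000 bp. All 47 genes of the 6 lists were found. Overlaps were computed in Python 3.11.15 with pandas 2.3.3, and the overlap code was tested on simulated data. Every member, every gene sharing a member's region, and the list genes with a region were to be named. The members and lists were chosen with earlier results of these data known. No genome, promoter or protein sequence was used here, so the planned motif searches were not run. Starts are 1-based.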

Additional observations from a re-analysis of the deposited data

Results flagged for a closer look

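For 2 of the 8 genes, ERF3 and ERF8, the presence of a region in ethylene against air went opposite ways in the lines. In ein2 a region was listed in ethylene alone, and in Col-0 in air alone. At ERF8 the place was the same in both sets. At ERF3 the regions did not overlap and lay at different ends of the gene, so no single ERF3 region went both ways. Among all protein-coding genes 3.06% showed opposite directions. The difference was not tested, since each condition has 1 peak list. At the common −log10 q minimum of 13.4 the ein2 ethylene regions of both genes dropped out.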

How the results depend on the processing

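The counts depended on how weak a region was allowed to be and on the flank. With the common −log10 q minimum of 13.4, 2 members had a region in ein2 ethylene and 2 in Col-0 ethylene. Of all protein-coding genes, 10.4% then had one in ein2 ethylene and 22.2% in Col-0 ethylene. In Col-0 air and not Col-0 ethylene there were 5, in ein2 ethylene and not ein2 air 1, and between the lines in ethylene 0 in either direction. The shares of all genes were 14.8% for Col-0 air without Col-0 ethylene and 1.88% for ein2 ethylene without ein2 air. Between the lines in ethylene, 1.56% were in ein2 and not Col-0, and 13.4% in Col-0 and not ein2. With a −log10 q of at least 20, members with a region numbered 2 in ein2 ethylene, 1 in ein2 air and 1 in Col-0 ethylene. In ein2 ethylene and not ein2 air there was 1, the reverse 0, in ein2 ethylene and not Col-0 ethylene 1 and the reverse 0. No share of all genes is given for this minimum, or for the 500 bp flank below. Whether these counts fell more than those of other genes can therefore not be told. When each set was reduced to its 3252 regions with the smallest p-values, 2 members had a region in ein2 ethylene, 2 in Col-0 ethylene and 4 in Col-0 air. Of all protein-coding genes, 16.5% had one in ein2 ethylene, 17.7% in Col-0 ethylene and 17.5% in Col-0 air. In ein2 ethylene and not ein2 air there were 0, in ein2 air and not Col-0 air 1 and the reverse 2, and between the lines in ethylene 0 in either direction. The shares of all genes were 4.08% for ein2 ethylene without ein2 air and 4.44% for the reverse. For ein2 air without Col-0 air the share was 2.92% and for the reverse 3.54%, against 0.204% and 18.8% at the authors' threshold. Between the lines in ethylene, 5.46% were in ein2 and not Col-0, and 6.6% in Col-0 and not ein2. At that size the ERF7 region was kept in ein2 air and not in Col-0 air. Without a flank, Col-0 air regions lay at 4 members and at 25.2% of all protein-coding genes. In Col-0 air and not Col-0 ethylene there was 1, in ein2 ethylene and not ein2 air 1, the reverse 0, in Col-0 air and not ein2 air 2, and between the lines in ethylene 1 in each direction. The shares of all genes were 8.87% for Col-0 air without Col-0 ethylene and 13.85% for Col-0 air without ein2 air. For ein2 ethylene without ein2 air the share was 5.29% and for the reverse 2.00%. Between the lines in ethylene, 4.16% were in ein2 and not Col-0, and 7.93% in Col-0 and not ein2. With 500 bp, 1 member was in Col-0 ethylene and not ein2 ethylene, since ERF12 dropped out. With 2000 bp, or the summit or at least 50% of the region inside the window, all 12 counts stayed within 1.5 times. Ranking by −log10 p moved the 18 rank shares by −11.8 to 36.5 percentage points, 14 of them upward, and ranking past the common minimum moved the 13 shares it leaves by 0 to 22.3 points, 8 of them upward and 0 downward. A higher share means a weaker rank. Asking for at least 50% of both regions to overlap left 4 of 7 Col-0 air regions with a Col-0 ethylene counterpart. No share of all regions is given for this rule. No paired analysis was possible because each condition has 1 peak list for both replicates, and for the same reason no replicate could be left out.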
